A study of Drosophila melanogaster with 10 samples.

Results

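The genes described here are 10 of the 11621 listed for brains of adult *Drosophila melanogaster*: Gpdh1, Acsl, bgm, Gpat4, Agpat1, Agpat2, Agpat3, Lpin, mdy and bond. They were chosen by name for their roles in building glycerolipids and in activating or lengthening fatty acids, with earlier results of these data known, and each was matched to 1 row of the deposited table by its symbol. RNA was sequenced from brains of male w1118 flies, a white-eyed laboratory strain otherwise called wild-type in the labels, at 4 to 7 days of age. The 5 libraries of the first group came from flies on LPHC, a food with a protein to carbohydrate ratio (P:C) of 0:1, and the 5 of the second group from flies on HPLC, with a P:C of 1:2, both at 360 g/L. At one total concentration the foods differed in carbohydrate as well as in protein, whose effects cannot be told apart here, and no group on standard food is part of the comparison. Per the series design, the first food lowered and the second raised the taste response to sucrose. The labels give neither the number of brains per library nor whether libraries came from separate cultures of flies. P-values thus speak only of variation from library to library, some of which may be technical.

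Triacylglycerol and the common phospholipids are built on a glycerol backbone. Glycerol-3-phosphate receives a fatty acid to give lysophosphatidic acid and then another to give phosphatidic acid. Phosphatidic acid is either used for acidic phospholipids or stripped of its phosphate to give diacylglycerol, which becomes triacylglycerol, phosphatidylcholine or phosphatidylethanolamine. Fatty acids enter these steps only as acyl-CoA, made by acyl-CoA synthetases. In flies the fat body is the main site of triacylglycerol storage, while in the brain lipid droplets are described chiefly in glia, and membranes of neurons and photoreceptors need phospholipids. RNA from a whole brain cannot tell fewer cells of a type from less RNA per cell.

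Of the 10 genes, 7 were higher on HPLC and none was lower, while Gpat4, Agpat1 and Lpin did not pass the test. All 10 were abundant enough to be tested, each with a mean normalised count of at least 10 over the 10 libraries. A normalised count is a gene's reads divided by a factor for its library's depth. Calls were made with limma at a Benjamini-Hochberg adjusted p under 0.05 over 9896 tested genes, and a log2 fold change is HPLC minus LPHC on the scale of log2 of the normalised count plus 1. By that rule 22.1% of all tested genes were higher and 18.9% were lower, 40.9% in all. The median log2 fold change was 0.60 over the 10 genes and -0.03 over all tested genes. Summed, the 10 genes held between 0.152% and 0.160% of an LPHC library's reads and between 0.201% and 0.207% of an HPLC library's.

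Recovered reads came to between 19834344 and 38402635 per library, so 3 reads correspond to a normalised count of 2.09 to 4.19, and the least-read of the 10 genes, mdy, had 171 to 698 reads. The split of calls over all genes moved with the scaling: 2185 genes were higher and 1866 lower as deposited. Scaling by the upper quartile gave 1766 and 3275, quantile normalization gave 1684 and 3894, and a scaling on 18 neuron markers gave 2409 and 288. The median of all genes stood at -0.11, -0.14 and 0.09 under these 3 scalings. The 7 rises among the 10 genes were called under each of 21 alternatives, which include these scalings, edgeR's quasi-likelihood test, DESeq2 and the leaving out of each library. None of the 18 neuron markers was at 0 in any library, and together they took 1.31% to 1.54% of reads on LPHC and 1.13% to 1.31% on HPLC. Any sample that holds neurons would pass this, so it does not test how much other head tissue was included. Photoreceptor markers took 8.65% to 12.8%, more than the neuron markers in every library, and the labels do not say whether retina was attached. Muscle markers took 0.589% to 0.758%.

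**Figure D1:**
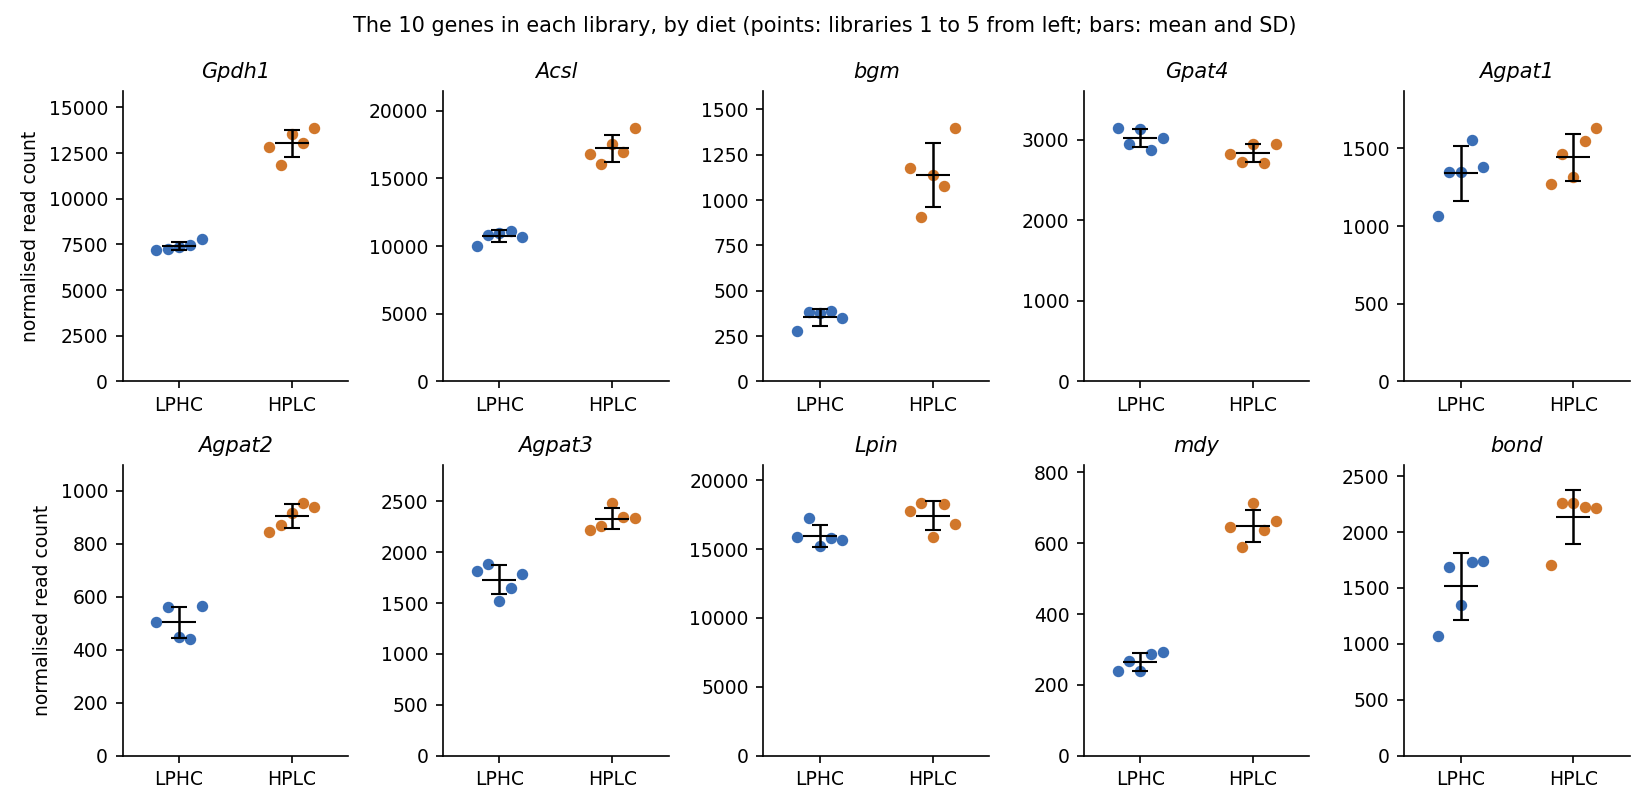
Normalised count of each of the 10 genes (vertical axes, starting at 0) in the 5 LPHC and 5 HPLC libraries; points are libraries, and the bar and whiskers give the mean and SD. Points of the 2 diets stand apart for Gpdh1, Acsl, bgm, Agpat2, Agpat3 and mdy, and overlap for Gpat4, Agpat1, Lpin and bond.

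Among the chosen genes, those that supply the backbone and the activated fatty acid, namely Gpdh1, Acsl and bgm, were all higher on HPLC. Gpdh1, the cytosolic glycerol-3-phosphate dehydrogenase that makes glycerol-3-phosphate from an intermediate of glycolysis, had normalised counts of 7203, 7233, 7375, 7461 and 7774 in LPHC replicates 1 to 5 and 12843, 11870, 13516, 13070 and 13846 in HPLC replicates 1 to 5. The lowest HPLC library lay well above the highest LPHC library. The means were 7409 ± 229 and 13029 ± 756 (SD, n = 5 each), and the log2 fold change was 0.81 ± 0.06 (SE, limma adjusted p = 3.94e-09). The Ensembl annotation places 697 of Gpdh1's exon bases, 22.1%, over a non-coding RNA on the opposite strand that is not analysed here, and the strand setting of the counting is not given in the sources used here.

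Acsl, a long-chain acyl-CoA synthetase that in flies also acts in axonal transport and synapse growth, stood at 10002, 10841, 10964, 11147 and 10688 in LPHC replicates 1 to 5. On HPLC it stood at 16801, 16078, 17573, 16946 and 18698. No library of one diet reached the range of the other. Its log2 fold change was 0.68 ± 0.06 (SE, n = 5 each, limma adjusted p = 5.81e-08), with group means of 10728 ± 440 and 17219 ± 983.

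The largest fold among the 10 genes was that of bgm (bubblegum), an acyl-CoA synthetase for very long-chain fatty acids whose loss causes degeneration in the fly optic lobe. Its normalised counts were 275, 380, 377, 389 and 351 in LPHC replicates 1 to 5 and 1179, 908, 1139, 1078 and 1395 in the HPLC replicates. The groups were far apart, and the HPLC libraries also spread more widely, with an SD of 176 against 46.5 on LPHC. As a share of the mean the spread was alike, 13.1% on LPHC and 15.5% on HPLC. bgm rose by 1.68 ± 0.11 on the log2 scale (SE, n = 5 each, limma adjusted p = 7.73e-09), and 2.99% of all tested genes had a larger one.

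The genes of the acylation steps differed in their calls, with Agpat2 and Agpat3 higher and Gpat4 and Agpat1 not past the test. Gpat4, an endoplasmic reticulum enzyme that adds the first fatty acid to glycerol-3-phosphate, had normalised counts of 3140, 2952, 3134, 2878 and 3024 on LPHC and 2823, 2724, 2949, 2717 and 2942 on HPLC, in order of replicate. The ranges overlapped, with 3 HPLC libraries below all LPHC libraries. The log2 fold change was -0.10 ± 0.05 (SE, n = 5 each, limma adjusted p = 0.147), with a 95% interval of -0.20 to 0.01. Its call and sign moved with the scaling: it passed as lower with upper-quartile scaling (-0.18) and quantile normalization (-0.17) and stood at 0.022 when scaled on neuron markers.

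The 3 acylglycerol-phosphate acyltransferases, add the second fatty acid and give phosphatidic acid. Agpat1 had normalised counts of 1066, 1347, 1351, 1553 and 1382 in LPHC replicates 1 to 5 and 1271, 1462, 1314, 1547 and 1629 on HPLC. The libraries of the 2 diets were interleaved, and replicate 1 was the lowest of each diet. Its log2 fold change of 0.11 ± 0.09 did not pass the test (SE, n = 5 each, limma adjusted p = 0.349; 95% interval -0.08 to 0.31) and turned to -0.016 with quantile normalization. The Ensembl annotation places 1008 of its exon bases, 25.8%, over CG32647 on the opposite strand, which itself had 5770 ± 604 on LPHC and 6692 ± 401 on HPLC, which limma called higher (0.22 ± 0.07, adjusted p = 0.0236). Reads of the 2 genes may not be separable there.

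Agpat2 was at 503, 560, 447, 440 and 566 on LPHC and at 846, 872, 918, 955 and 938 on HPLC. Every HPLC library was well above every LPHC library. Agpat2 rose by 0.85 ± 0.08 on the log2 scale (SE, n = 5 each, limma adjusted p = 7.21e-08), between means of 503 and 906 with SDs of 11.9% and 5.04% of the mean.

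Agpat3 rose less, from 1816, 1886, 1520, 1651 and 1789 on LPHC to 2221, 2263, 2488, 2343 and 2340 on HPLC. The gap between the diets was narrower than for Agpat2 but no libraries overlapped. Its log2 fold change was 0.43 ± 0.06 (SE, n = 5 each, limma adjusted p = 2.54e-05).

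Lpin, a phosphatidate phosphatase that makes diacylglycerol and in other settings acts as a nuclear coregulator, had the highest level per kilobase of the 10 genes on LPHC. Its normalised counts were 15858, 17280, 15214, 15822 and 15643 on LPHC and 17745, 18368, 15910, 18289 and 16813 on HPLC. LPHC replicate 2 lay within the HPLC range, and HPLC replicates 3 and 5 lay within the LPHC range. The log2 fold change of 0.13 ± 0.06 did not pass (SE, n = 5 each, limma adjusted p = 0.115), but it passed without HPLC replicate 3 (0.16, adjusted p = 0.0352) and when scaled on neuron markers (0.24, adjusted p = 0.0271). Lpin shares 600 exon bases, 10.9% of its length, with kermit on the same strand, a gene at only 186 ± 11.9 on LPHC and 215 ± 12.1 on HPLC.

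RNA of the member gene for the last step of triacylglycerol synthesis was higher on HPLC. mdy (midway), the fly diacylglycerol acyltransferase of the DGAT1 type, had normalised counts of 239, 268, 239, 286 and 292 in LPHC replicates 1 to 5 and 645, 589, 715, 637 and 662 in HPLC replicates 1 to 5. The lowest HPLC library was above the highest LPHC library by more than the LPHC mean. Its log2 fold change was 1.29 ± 0.08 (SE, n = 5 each, limma adjusted p = 3.32e-10), between means of 265 ± 25.3 and 650 ± 45.2.

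bond (james bond), an elongase of very long-chain fatty acids known for its part in cytokinesis of male germ cells and in making a male pheromone, varied more between LPHC libraries than any other of the 10 genes, with an SD of 19.7% of the mean. It stood at 1067, 1688, 1346, 1731 and 1739 on LPHC and at 1709, 2259, 2263, 2227 and 2220 on HPLC. Replicate 1 was the lowest of each diet, and HPLC replicate 1 lay inside the LPHC range while the other HPLC libraries lay above it. The log2 fold change was 0.51 ± 0.13 (SE, n = 5 each, limma adjusted p = 0.00900), and with single libraries left out its adjusted p reached at most 0.0415. In the Ensembl annotation 184 of bond's exon bases, 9.57%, lie over a non-coding RNA on the opposite strand that is not analysed here.

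Of the 7 rises, 6, those of Gpdh1, Acsl, bgm, Agpat2, Agpat3 and mdy, had no overlap between diets. Over all tested genes 17.4% were higher without overlap and 29.2% did not overlap in either direction.

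**Figure D2:**
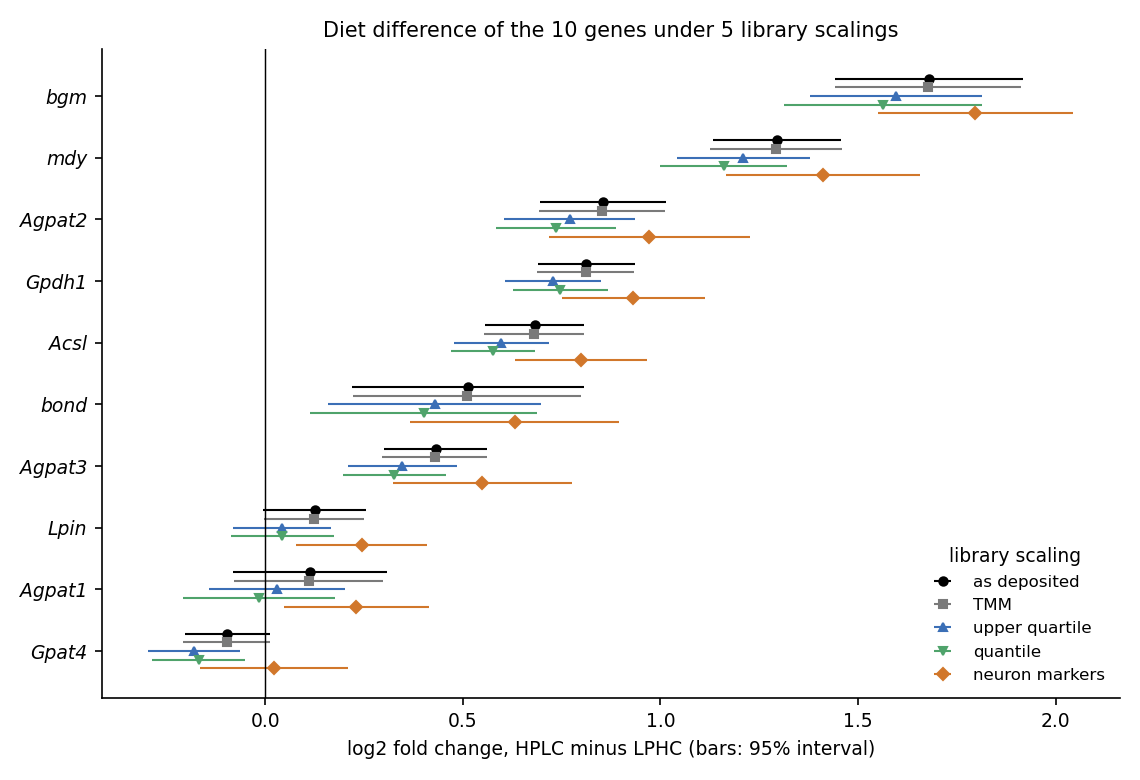
Log2 fold change, HPLC minus LPHC, of the 10 genes as deposited and under 4 other scalings; points are estimates and lines are 95% intervals. bgm, mdy, Agpat2, Gpdh1, Acsl, bond and Agpat3 stay above 0 under each scaling, while Gpat4 and Agpat1 each lie on both sides of 0.

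Per kilobase of exon, with lengths from the Ensembl annotation, the order of levels changed with diet. On LPHC Lpin led with 2897 ± 141 normalised counts per kilobase, followed by Gpdh1 with 2351 ± 72.8, Acsl with 2189 ± 89.7 and Gpat4 with 1328 ± 50.05. Below these came bond, Agpat3, Agpat1, Agpat2, bgm and mdy, from 787 ± 155 down to 98.5 ± 9.39. Neighbours in this order had overlapping library ranges only for bond with Agpat3 and for bgm with mdy.

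On HPLC Gpdh1 was first with 4134 ± 240 normalised counts per kilobase, ahead of Acsl with 3513 ± 200.5 and Lpin with 3162 ± 190. The library range of Acsl overlapped that of Gpdh1 above it and that of Lpin below it, while Gpdh1 and Lpin did not overlap. The lower end held bgm with 432 ± 66.9, Agpat2 with 421 ± 21.2, Agpat1 with 370 ± 38.9 and mdy with 242 ± 16.8 counts per kilobase. bgm overlapped Agpat2 there and Agpat2 overlapped Agpat1, so the 3 did not separate, although Agpat1 had stood clear above Agpat2 and bgm on LPHC. mdy was last on both diets.

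Ratios between 2 genes within a library do not depend on the scaling, and 5 pairs of genes with related roles were compared by exact permutation of the libraries over the diets. On the log2 scale each difference follows from the fold changes of its 2 genes given above. These tests are therefore not independent of the limma calls. The ratio of Agpat1 to Agpat2 was 2.70 ± 0.567 on LPHC, from 2.12 to 3.53, and 1.59 ± 0.125 on HPLC, from 1.43 to 1.74. The ranges did not overlap (log2 difference -0.74, two-sided exact permutation p = 0.00794, the smallest possible, adjusted over the 5 pairs 0.00992). The ratio of Agpat2 to Agpat3 moved the other way, from 0.290 ± 0.0193 to 0.389 ± 0.0156, again without overlap (log2 difference 0.42, exact permutation adjusted p = 0.00992). Agpat1 to Agpat3 fell short, at 0.781 ± 0.141 on LPHC and 0.6205 ± 0.0687 on HPLC (log2 difference -0.32, exact permutation adjusted p = 0.0635). Without LPHC replicate 1 that difference was -0.42 with an exact permutation adjusted p of 0.0159.

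Among the synthetases, the ratio of Acsl to bgm normalised counts was 30.6 ± 3.29 on LPHC and 15.3 ± 1.64 on HPLC. It ran from 28.5 to 36.3 on LPHC and from 13.4 to 17.7 on HPLC (log2 difference -0.998, exact permutation adjusted p = 0.00992, n = 5 each). At the end of the pathway, mdy relative to Lpin was 0.0166 ± 0.00165 on LPHC and 0.0375 ± 0.00491 on HPLC. Every HPLC library exceeded every LPHC library (log2 difference 1.17, exact permutation adjusted p = 0.00992, n = 5 each).

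**Figure D3:**
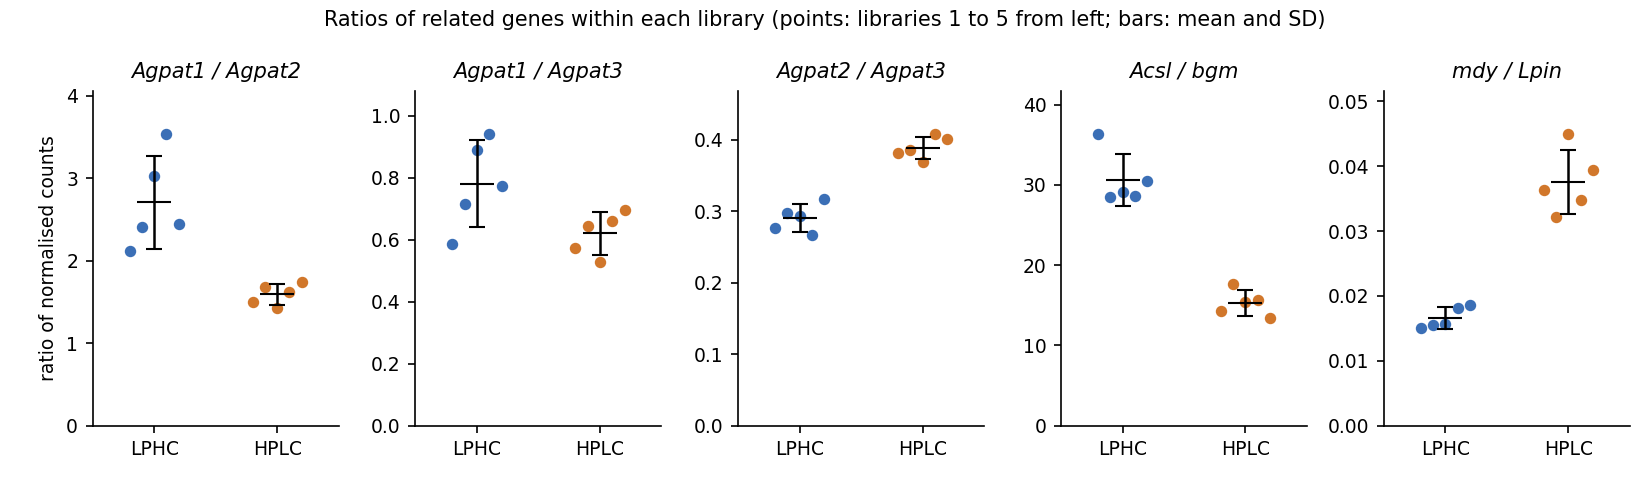
Ratio of normalised counts of 2 genes within each library, for 5 pairs, by diet; points are libraries, with mean and SD. The diets are separate for Agpat1 to Agpat2, Agpat2 to Agpat3, Acsl to bgm and mdy to Lpin, and overlap for Agpat1 to Agpat3.

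The other genes of the pathway were counted from lists, beside the background of 22.1% higher and 18.9% lower among all tested genes. Of 26 tested genes in the list of other glycerolipid and glycerol phosphate genes, 13 were higher and 4 were lower, with a median log2 fold change of 0.25. CG1946, one of the 13, passed the filter on low values only through the HPLC libraries. The 3 with the smallest adjusted p were mino, Dgat2 and Gk2. mino, the mitochondrial enzyme for the first acylation and so a counterpart of Gpat4, went from a normalised count of 1572 ± 91.0 to 4190 ± 232.5 (log2 fold change 1.41 ± 0.06, SE, n = 5 each, limma adjusted p = 2.07e-12). Dgat2, a diacylglycerol acyltransferase unrelated in sequence to mdy, went from 29.3 ± 1.45 to 182 ± 26.1 (2.58 ± 0.13, limma adjusted p = 2.93e-11). It has close copies in the genome, CG1941 and CG1946, with which reads may be shared. Gk2, a glycerol kinase that makes glycerol-3-phosphate without Gpdh1, had 881 ± 57.2 and 1544 ± 83.1 (0.81 ± 0.06, limma adjusted p = 4.59e-09). The 4 that fell, named after their values were seen, were CG11426, Dgkepsilon, Gpdh3 and rdgA, with log2 fold changes from -0.30 to -0.20. Gpdh3 is a paralogue of Gpdh1, and rdgA is the photoreceptor diacylglycerol kinase. With upper-quartile scaling or quantile normalization 9 of the 26 were lower, and with scaling on neuron markers none was.

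In the branch to phospholipids 2 of 14 headgroup genes were higher and 3 were lower, 14.3% and 21.4%, with a median of -0.08. The share of lower calls was near that of all tested genes. eas, an ethanolamine kinase, was higher (0.59 ± 0.06, SE, n = 5 each, limma adjusted p = 1.78e-07). Pcyt2, the choline-phosphate cytidylyl transferase formerly called Cct2, fell from a normalised count of 4234 ± 385 to 2459 ± 246 (-0.78 ± 0.08, limma adjusted p = 2.93e-07). Pis, the phosphatidylinositol synthase, fell from 15894 ± 706 to 12891 ± 995 (-0.30 ± 0.06, limma adjusted p = 0.00121). The median of these genes was 0.04 with scaling on neuron markers, under which 1 was lower, against 7 under the upper-quartile and 8 under the quantile setting.

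Of 13 other tested acyl-CoA synthetases 8 were higher and none was lower (1 with quantile normalization), with a median of 0.36. AcCoAS, which makes acetyl-CoA from acetate, went from a normalised count of 9719 ± 450 to 30492 ± 2628 (1.65 ± 0.07, SE, n = 5 each, limma adjusted p = 2.41e-12). hll (heimdall), a close relative of bgm, had 2 to 15 reads per LPHC library and went from a normalised count of 5.35 ± 3.28 to 99.2 ± 13.2 (4.11 ± 0.28, SE, n = 5 each, limma adjusted p = 2.18e-09). It passed the filter on low values only through the HPLC libraries, and its log2 fold change ran from 3.37 to 4.37 over the alternatives. Fatp3, a fatty acid transport protein with synthetase activity in its family, went from 387 ± 18.9 to 627 ± 23.7 (0.69 ± 0.06, limma adjusted p = 4.29e-08). Of 3 tested acyl-CoA binding proteins 2 were higher, Acbp2 most, from 486 ± 33.6 to 2616 ± 369 (2.42 ± 0.08, limma adjusted p = 3.82e-13), and CG8814 by 0.40 ± 0.05 on the log2 scale.

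Of 14 other elongases and elongation cycle genes 6 were higher and none was lower (1 with quantile normalization), with a median of 0.24, beside the 0.51 of bond. Their leading members were the predicted elongases CG33110 (1.19 ± 0.07, SE, n = 5 each, limma adjusted p = 2.30e-10), CG5326 (0.92 ± 0.06) and ELOVL (0.91 ± 0.06). Of 14 genes of fatty acid synthesis and its regulators 9 were higher and 2 were lower, with a median of 0.76. By adjusted p the first was Men, the cytosolic malic enzyme, at 1.98 ± 0.07 (SE, n = 5 each, limma adjusted p = 6.18e-13). Next came the desaturase Desat1 at 1.76 ± 0.08 and the fatty acid synthase FASN1 at 1.81 ± 0.09. FASN2 had the largest log2 fold change of this list, 2.16 ± 0.24, from a normalised count of 22.7 ± 7.57 to 101 ± 20.9. The 2 that were lower, named after their values were seen, were bigmax and SCAP at -0.32 and -0.21, and none of the 14 was lower with scaling on neuron markers. Of 10 lipid droplet and lipase genes 8 were higher as deposited, with a median of 0.49. Under the upper-quartile or quantile setting 6 were higher, and 9 with scaling on neuron markers. dob, a lipase of the brummer family, had normalised counts of 159 ± 11.8 and 1303 ± 181 (3.02 ± 0.09, limma adjusted p = 4.41e-14), while Lsd-1 and Lsd-2, perilipins of the droplet surface, rose by 2.60 ± 0.08 and 0.89 ± 0.06. Lsd-2 had 5248 ± 349 on LPHC and 9716 ± 521 on HPLC.

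**Figure D4:**
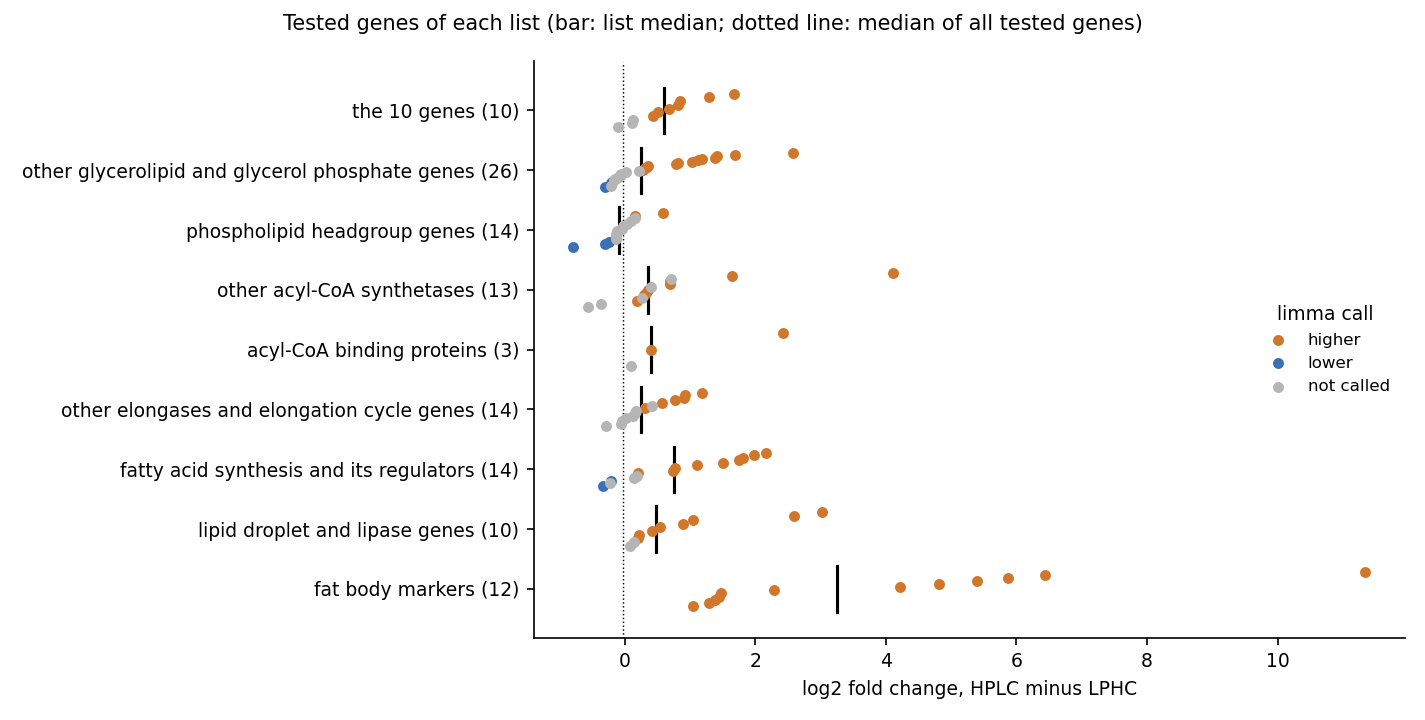
Log2 fold change, HPLC minus LPHC, of each tested gene in the lists of related genes and in the fat body markers, coloured by limma call, with the list median as a bar and the median of all tested genes as a dotted line. The medians run from -0.08 for the phospholipid headgroup genes to 3.25 for the 12 fat body markers that passed the filter on low values, with the 10 genes at 0.60.

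Genes whose pattern over the 10 libraries was most like that of mdy, by Pearson correlation of log2 values, were NimB2 (r = 0.999), PGRP-SD (0.998) and CG33493 (0.997). For Gpdh1 they were CG11400, Gbp2 and GstS1, each at 0.998. These correlations mostly describe the shared step between diets, since 1232 genes exceeded 0.9 with mdy and 1217 with Gpdh1 among 9895.

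Markers of other tissues moved with the same comparison. Fat body markers, of a tissue that lies against the brain in the head and expresses many of these lipid genes, took 0.0580% to 0.0780% of reads on LPHC and 0.334% to 0.419% on HPLC, a 5.57-fold rise in the mean (exact permutation p = 0.00794, adjusted over 8 marker lists 0.0106). apolpp alone held most of that share, at normalised counts of 14099 ± 2039 and 68601 ± 6574. All 12 tested of the 15 in the table were higher, with a median log2 fold change of 3.25, or of 1.47 over the 15 genes with no filter. Their ratios of means ran from 2.05 for the gene named to up to 2825 for Lsp2, which had 1 to 6 reads per LPHC library. Of the 12, Lsp2 and fit passed the filter on low values only through the HPLC libraries. Lsp1gamma and Fbp2, which did not pass that filter, were at 0 in at least 1 library. The part of fat body RNA in the rises of Gpdh1, Acsl, bgm, Agpat2, Agpat3, mdy and bond, and in those of the related lists, was not tested. Haemocyte markers, with 6 of 12 higher as deposited and 12 with scaling on neuron markers, went from 0.0914% ± 0.0169 to 0.141% ± 0.00684 of reads (exact permutation adjusted p = 0.0106). Much of that rise was in 1 gene, Glt, at normalised counts of 911 ± 152 and 10028 ± 1214.

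Oenocyte markers, of the cells that make very long-chain hydrocarbons, stood at 0.0183% to 0.0214% on LPHC and 0.0187% to 0.0204% on HPLC, with 2 of 5 higher (exact permutation p = 0.921). Most of that share was 1 gene, spidey, at 4867 ± 171 and 4933 ± 222. FASN2 and FarO were higher on HPLC, at 22.7 ± 7.57 against 101 ± 20.9 and at 302 ± 52.5 against 496 ± 32.1. Cyp4g1 and FASN3 had lower means on HPLC and were not called, at 183 ± 176 against 99.4 ± 92.3 and at 46.6 ± 10.8 against 39.7 ± 7.73. Cyp4g1 varied from 2 to 501 reads among LPHC libraries. Glia markers took 0.201% ± 0.00549 and 0.219% ± 0.0167 of reads, with 4 of 9 higher, and none under upper-quartile scaling (exact permutation adjusted p = 0.0998). Gut and salivary markers, with 4 in the table and both tested genes higher, of which Amy-p passed the filter only through the HPLC libraries, stayed at or below 0.0112% in every library and averaged 0.000270% on LPHC and 0.00959% on HPLC (exact permutation adjusted p = 0.0106). The other 3 lists were lower on HPLC, each with an exact permutation adjusted p of 0.0106. Neuron markers, 4 of 18 called lower as deposited but 13 under the upper-quartile or quantile setting and 1 when scaled on themselves, went from 1.43% ± 0.0961 to 1.25% ± 0.0672. Photoreceptor markers, 5 of 15 called lower and none with scaling on neuron markers, went from 12.2% ± 0.480 to 10.1% ± 0.814. Muscle markers went from 0.726% ± 0.0319 to 0.598% ± 0.00818. Of 14 tested muscle markers 8 were called lower as deposited, 11 under the upper-quartile or quantile setting and 6 with scaling on neuron markers.

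**Figure D5:**
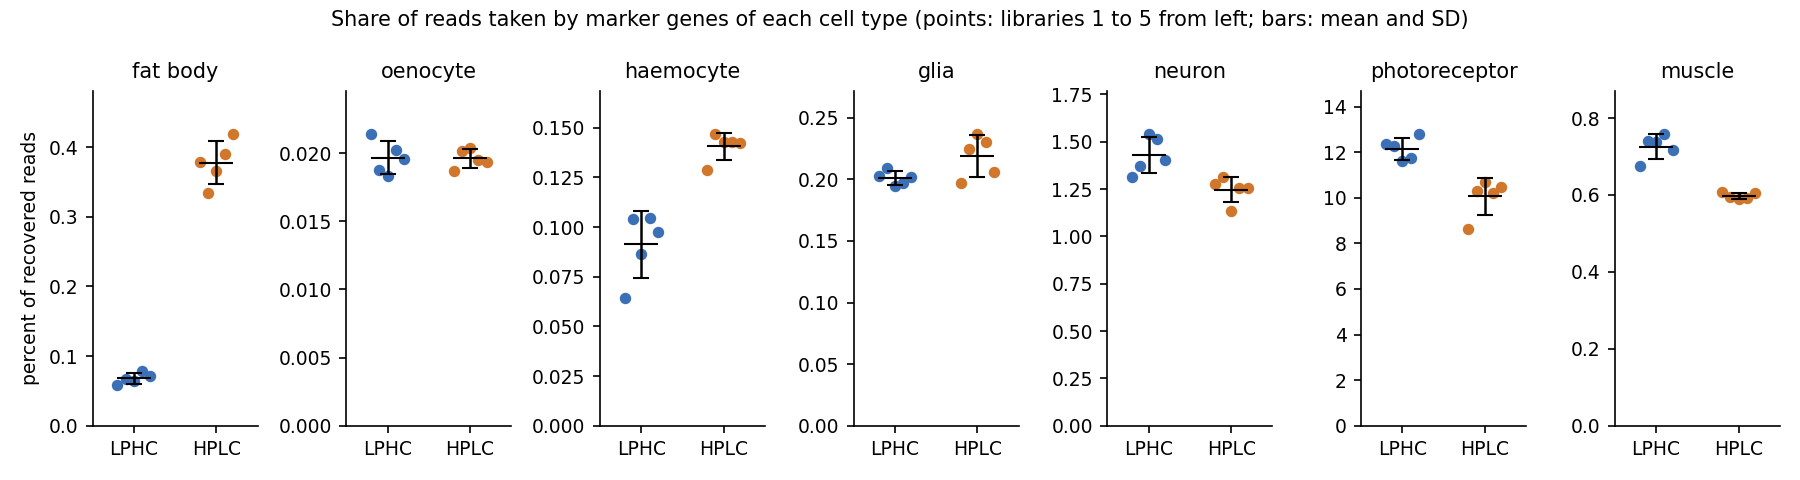
Percent of each library's reads in the markers of 7 tissues or cell types, by diet; points are libraries 1 to 5 from the left, with mean and SD. Fat body and haemocyte markers are higher in every HPLC library than in any LPHC library, neuron, photoreceptor and muscle markers are lower, and oenocyte and glia markers overlap.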

How the data were processed

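Brain RNA was sequenced from 10 libraries, 5 per diet, grouped by the diet in their titles. A single table of normalised read counts, a signal per gene and library, was deposited by the authors. The submitters' processing notes name HISAT2 as a tool. For its version, the counting tool, the strand setting, the annotation and the build, the record is silent: not given in the sources used here. Deposited values were whole read counts divided by 1 factor per library. Relative to the count, 100% of values lay within 1e-06 of a whole number, a tolerance too wide to test the largest counts. The reads so recovered served edgeR 4.0.16 and DESeq2 1.42.0 as alternatives.

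Diets were compared by limma-trend (limma 3.58.1, R 4.3.3, robust) on log2 of the normalised count plus 1, over genes with a mean of at least 10. This left out 1725 genes, and p-values were adjusted by Benjamini-Hochberg over all tested genes. Fold changes of low genes are understated on this scale. Ratios between genes, as log2 values, and marker shares, as percent of reads, were tested by two-sided exact permutation, whose smallest p is 0.00794. Exon lengths and overlaps came from the Ensembl annotation. The limma test was run on simulated data in which few genes changed, equally in both directions, so that check does not cover the choice of scaling. The permutation tests were not simulated.

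The 10 genes and the lists were chosen with earlier results of these data known. Genes named from each list of related genes were its called members with the smallest adjusted p, up to 3. Others are marked as picked with values in view. Calls and fold changes were recomputed with 4 other scalings, with pseudocounts of 0.5 and 5, with the filter removed or set to 50, with the replicate number as a block, with edgeR and DESeq2, and without each library. Counts and medians of the lists were not recomputed with edgeR, DESeq2, pseudocounts or libraries left out. Ratios were recomputed with both pseudocounts, the block and each library left out, and marker shares only with each library left out. No coordinates or sequences are given, for want of a stated build and of sequence tables.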

Additional observations from a re-analysis of the deposited data

Results flagged for a closer look

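In 46 groups of 5 libraries, 1 extreme library stood apart from the others by the gap relative to the range in 4, and chance alone gives about 1 in 20 groups. bond had its lowest HPLC value, 1709, in replicate 1. The ratio of Acsl to bgm had its highest LPHC value, 36.3, in replicate 1, the library in which bgm was lowest. The share of reads in haemocyte markers and in photoreceptor markers was lowest among HPLC libraries in replicate 1, at 0.129% and 8.65%. Without HPLC replicate 1 the log2 fold change of bond was 0.59 (limma adjusted p = 0.00305).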

How the results depend on the processing

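The 7 rises among the 10 genes kept direction and call under all 21 alternatives. edgeR's quasi-likelihood test called 2158 genes higher and 1874 lower, and DESeq2 called 2218 and 1935. Lpin passed with scaling on neuron markers (0.24), and ranged from 0.11 to 0.16 with single libraries left out, passing without HPLC replicate 3. Gpat4 passed as lower under upper-quartile scaling (-0.18) and under quantile normalization (-0.17), and stood at 0.022 with scaling on neuron markers. Agpat1 stood at -0.016 with quantile normalization. The count of the 10 genes called lower was therefore 1 under upper-quartile scaling and 1 under quantile normalization, and 8 were higher with scaling on neuron markers and without HPLC replicate 3. Genes lower over the whole table numbered 3275, 3894 and 288 under these 3 scalings. The cause of these shifts was not tested.

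With single libraries left out, the log2 ratio of Agpat1 to Agpat3 ran from -0.42 to -0.25, past the threshold only without LPHC replicate 1. The difference in oenocyte share changed sign, between -0.000375 and 0.000395 percent of reads. The glia share differed by 0.0134 to 0.0233 percent of reads, past an unadjusted exact permutation p of 0.05 only without HPLC replicate 1.

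Same-numbered libraries of the 2 diets deviated together with correlations from -0.05 to 0.14, so the numbers were not taken as pairs. With the replicate block 2152 genes were higher and 1702 lower, 7 of the 10 genes were higher and none lower. Under the replicate block the 4 called ratios kept their differences of -0.74, 0.42, -0.998 and 1.17 with an exact permutation p of 0.0625, the smallest that test allows. The replicate block called 10 of 12 haemocyte markers higher, against 6 without it. Depth limits genes such as hll, with 2 to 15 reads per LPHC library.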
